A study of Mus musculus with 6 samples.

Results

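The nuclear genes of respiratory complex III, complex IV and ATP synthase were followed in brain microvessels of mice with and without *Crif1* in their endothelium. Members were taken by symbol alone. They are the symbols that begin with Uqcr or Atp5, the symbol Cyc1, and the numbered Cox4 to Cox8 subunit genes. The rule gave 44 of 23183 symbols, 9 for complex III, 18 for complex IV and 17 for ATP synthase. *Atp5s* and *Atp5sl* carry an ATP synthase name and are not structural subunits of the enzyme. The 6 subunits of these complexes that mitochondrial DNA encodes were not analysed here.

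Complex III passes electrons from ubiquinol to cytochrome c, and complex IV passes them on to oxygen. Both pump protons across the inner mitochondrial membrane, and ATP synthase lets the protons flow back through its c-ring to make ATP. Several complex IV subunits, and the c subunit of ATP synthase, are encoded by more than 1 gene. For complex IV the further gene is typical of muscle, brown fat, lung or testis. The CRIF1 protein, encoded by *Gadd45gip1*, is part of the mitochondrial ribosome and is needed to make the subunits encoded by mitochondrial DNA.

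RNA of isolated brain microvessels was sequenced from 3 WT mice (TEK-cre, Crif1+/+) and 3 TEKCRIF1 KO mice (TEK-cre, Crif1 flox/flox), all C57BL/6, with 1 library per mouse. Both groups carry the Cre recombinase, which the endothelial gene *Tek* drives, whereas isolated microvessels also hold pericytes, smooth muscle cells and attached astrocyte endfeet. No treatment was given, and the age of the sequenced mice is not given in the sources used here. Values were deposited as FPKM, fragments per kilobase of transcript scaled to the mapped fragments of the library, so that levels of genes can be compared per length.

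The groups were compared with limma on log2(FPKM + 1). All 14247 genes whose mean over the libraries reached 1 FPKM entered the fit, and p-values were adjusted over all of them (Benjamini-Hochberg). With 3 mice in each group, the smallest p of an exact two-sided permutation test is 0.1. *Gadd45gip1* stood at 18.8, 15.3 and 16.5 FPKM in WT mice and at 10.8, 7.54 and 10.4 FPKM in KO mice, and the groups did not overlap. The spacing of the smallest values put the depth at an estimated 6330000 to 11600000 fragments per library, with the lowest estimate in KO 2. Endothelial markers were present in every library, with sums over 8 genes of 968 to 1359 FPKM in WT mice and 853 to 1169 FPKM in KO mice. Within this list *Cdh5*, for the cadherin of endothelial junctions, stood at 86.7, 92.4 and 91.3 FPKM in WT mice and at 50.8, 42.5 and 38.1 FPKM in KO mice (unadjusted limma p of 0.000303, adjusted 0.841). All KO values lay below all WT values for 1 of these 8 markers, 3 of 8 pericyte, 1 of 5 astrocyte, 1 of 4 oligodendrocyte and 1 of 4 microglia markers, where 5.7% of all genes tested lay that way. The astrocyte sum did not overlap between the groups, at 294 to 409 FPKM in WT mice and 247 to 289 FPKM in KO mice. The pericyte (820 to 1325 and 860 to 984 FPKM), oligodendrocyte (163 to 264 and 71.0 to 237 FPKM) and microglia (44.6 to 61.7 and 40.9 to 59.4 FPKM) sums overlapped, and the part of these cells in the members' values was not tested. Smooth muscle, pericyte, neuronal, red cell and choroid plexus markers were also present in every library. For the members, KO 2 stood apart from KO 1 and KO 3, and the counts, the medians and the members named in full for which it matters are given with and without it.

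Of the 44 members, 42 reached a mean of 1 FPKM and were tested. *Cox7b2* and *Cox8c* were listed at 0 in all 6 libraries. *Cox8b* passed this minimum only through the KO libraries and so had to differ. It is described by its values below, and the counts of differences are given over the other 41. *Cox6a2* passed the minimum only through the WT libraries and stays among the 41. Among the tested members, WT means ran from 0 FPKM for *Cox8b* to 706 FPKM for *Atp5k*. The members together took 2.11% to 2.40% of the summed FPKM of a WT library. In the KO libraries 1 to 3 they took 2.78%, 1.94% and 2.97%, so KO 2 was below every WT library and the other two KO libraries were above them.

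Most members had a higher mean in KO mice, and few of the differences exceeded the spread between mice. The log2 fold change was above 0 for 35 of 41 members, against 49.2% of all genes tested. It was above 0 for 6 of 9 complex III genes, 13 of 15 complex IV genes and 16 of 17 ATP synthase genes. The median log2 fold change was 0.17 for complex III, 0.26 for complex IV (0.30 with *Cox8b*) and 0.25 for ATP synthase, and −0.01 over all genes tested. An unadjusted p under 0.05 was found for 1 of 41 members, *Uqcrb*, which was higher in KO mice, where 2.77% of all genes tested were called in that direction. No member was called lower, where 3.11% of all genes were. After adjustment with limma 0 members passed, as did 0 of all genes tested, and the smallest adjusted p of a member was 0.841. The KO values lay above every WT value for 2 of 41 members, *Uqcrb* and *Atp5g2*, where 5.37% of all genes tested were arranged that way. For no member did all KO values lie below all WT values (5.7% of all genes tested). In bulk RNA of a vessel preparation, fewer cells of a type and less RNA per cell cannot be told apart.

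The KO libraries did not behave alike. KO 1 lay above every WT library for 32 of 41 members and KO 3 for 36, against 31.1% and 29.2% of all genes tested. KO 1 lay below every WT library for 1 member (28.7% of all genes tested) and KO 3 for 0 (28%). KO 2 lay below every WT library for 27 members, above every one for 2 and between them for 12. Over all genes tested KO 2 lay below every WT library in 32.6% and above in 28.7%. KO 1 and KO 3 together exceeded all WT libraries and KO 2 for 31 of 41 members, where 13.2% of all genes tested had that order. Members were highest in KO 1 in 24 cases and in KO 3 in 13.

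**Figure D1:**
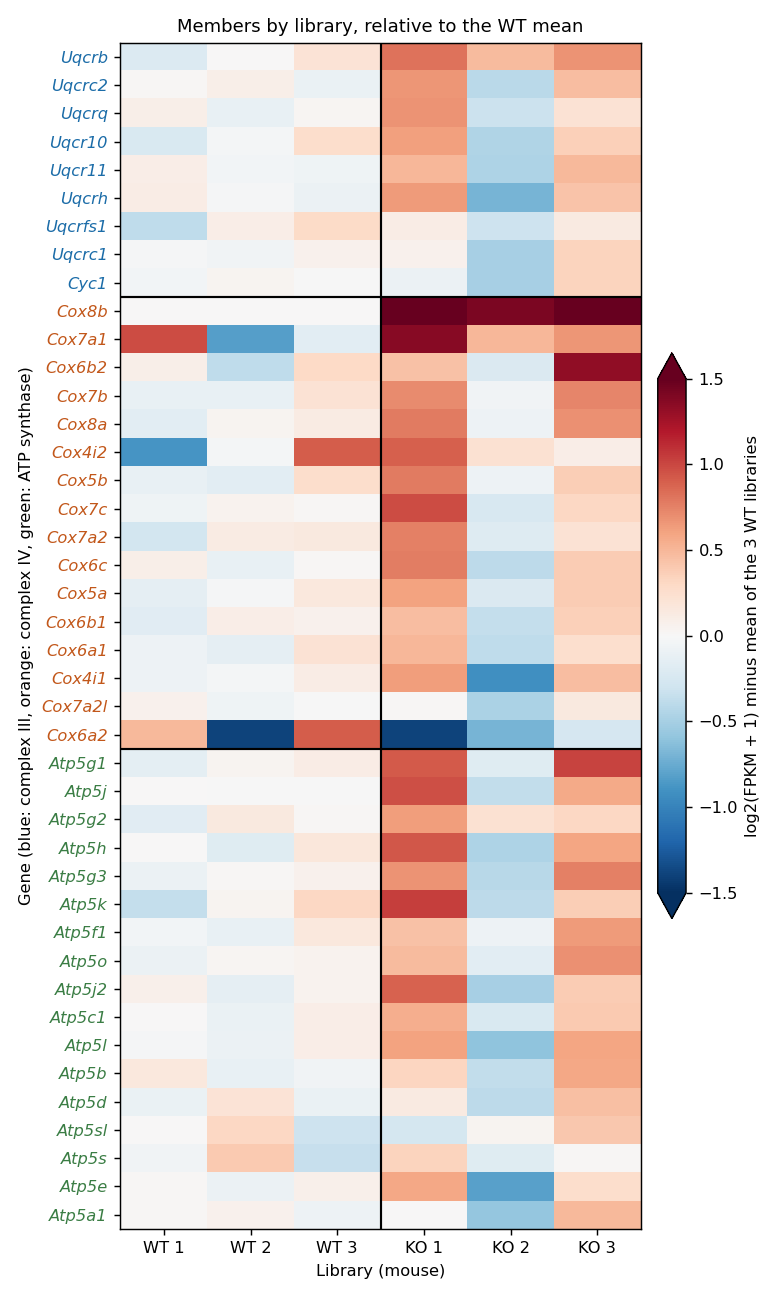
Difference of each library from the WT mean on the log2(FPKM + 1) scale, red for higher and blue for lower, with arrows on the colour bar where values run past its ends, for the 42 tested members grouped by complex. Leaving *Cox8b* aside, whose colours rest on WT libraries listed at 0, KO 1 and KO 3 were above every WT library for 32 and 36 members, and KO 2 was below every WT library for 27.

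The same order held in each of the 3 complexes. The median difference from the WT mean of complex III genes was 0.61 in KO 1, −0.45 in KO 2 and 0.36 in KO 3, on the log2 scale. For complex IV genes it was 0.73, −0.22 and 0.38, and for ATP synthase genes 0.58, −0.37 and 0.48. Medians of the WT libraries lay between −0.08 and 0.14, and those of all genes tested were 0.01, −0.02 and 0 in the KO libraries. Within the members' sum the complexes kept similar proportions. Complex III took 16.0% to 17.0% in WT mice and 15.3% to 16.7% in KO mice, complex IV 31.0% to 32.2% and 30.3% to 31.9%, and ATP synthase 51.8% to 52.3% and 51.4% to 54.0%. The complexes were not tested against each other, since their genes share the same 6 libraries.

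KO 2 was set apart because of its values for these same members, so counts without it only describe the data. Without KO 2, 7.31% of all genes tested were called higher in KO mice at an unadjusted p under 0.05. Of the 41 members, 28 were called, all in that direction. These were 6 complex III, 9 complex IV and 13 ATP synthase genes, and the medians of the complexes were 0.48, 0.55 and 0.54. No member passed adjustment with limma, with a smallest adjusted p of 0.117. With KO 2 as the only KO library, and its variance taken to be that of the WT mice, 11 of 41 members were called lower (8.01% of all genes tested) and 0 higher (4.8%) at an unadjusted p under 0.05. Those called lower were *Cyc1*, *Uqcr11*, *Uqcrc1* and *Uqcrh* of complex III, *Cox4i1* and *Cox7a2l* of complex IV, and *Atp5a1*, *Atp5e*, *Atp5g3*, *Atp5j2* and *Atp5l* of ATP synthase. This comparison was added after the values had been seen.

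**Figure D2:**
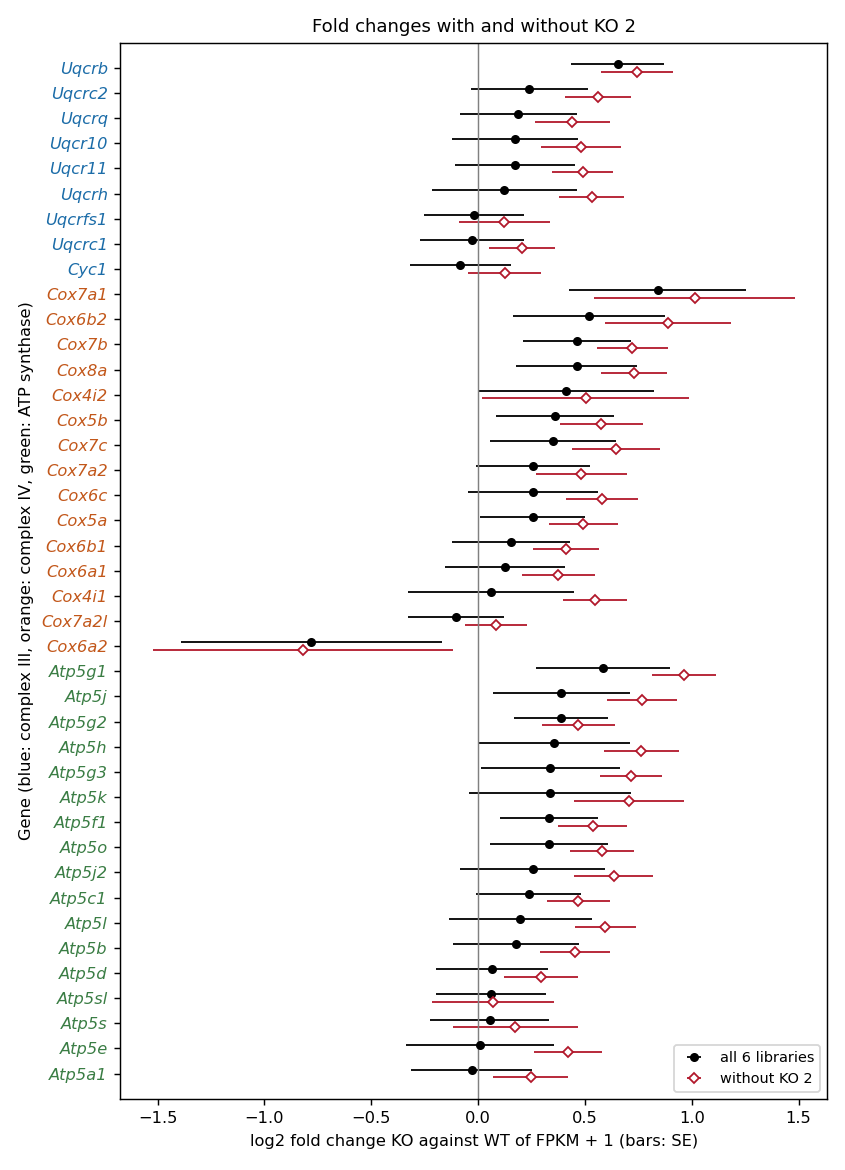
Log2 fold change of 41 tested members in KO mice against WT mice on the log2(FPKM + 1) scale, with bars for the SE, from all 6 libraries (filled circles) and without KO 2 (open diamonds). *Cox8b* is left out because it was listed at 0 in WT mice, estimates from all libraries run from −0.78 for *Cox6a2* to 0.84 for *Cox7a1*, and 40 of 41 lie above 0 without KO 2.

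Markers of the choroid plexus, the epithelium that makes cerebrospinal fluid, were high in the same pair of KO libraries. The 4 markers (*Ttr*, *Kcnj13*, *Folr1* and *Otx2*) summed to 2884 to 3353 FPKM in WT mice and to 8833 FPKM in KO 1, 2967 FPKM in KO 2 and 10561 FPKM in KO 3. All 4 were higher in KO 1 and KO 3 than in every WT library and KO 2. That order was found in 13.2% of all genes tested, and the markers were chosen with earlier results of these data known. *Otx2*, a transcription factor, stood at 21.3, 23.2 and 24.2 FPKM in WT mice and at 66.9, 23.3 and 87.5 FPKM in KO mice. The sum was highest in KO 3, as was the members' part of the summed FPKM of a library (2.97% against 2.78% in KO 1). Single members were more often highest in KO 1. The part of this epithelium in the members' values was not tested.

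**Figure D3:**
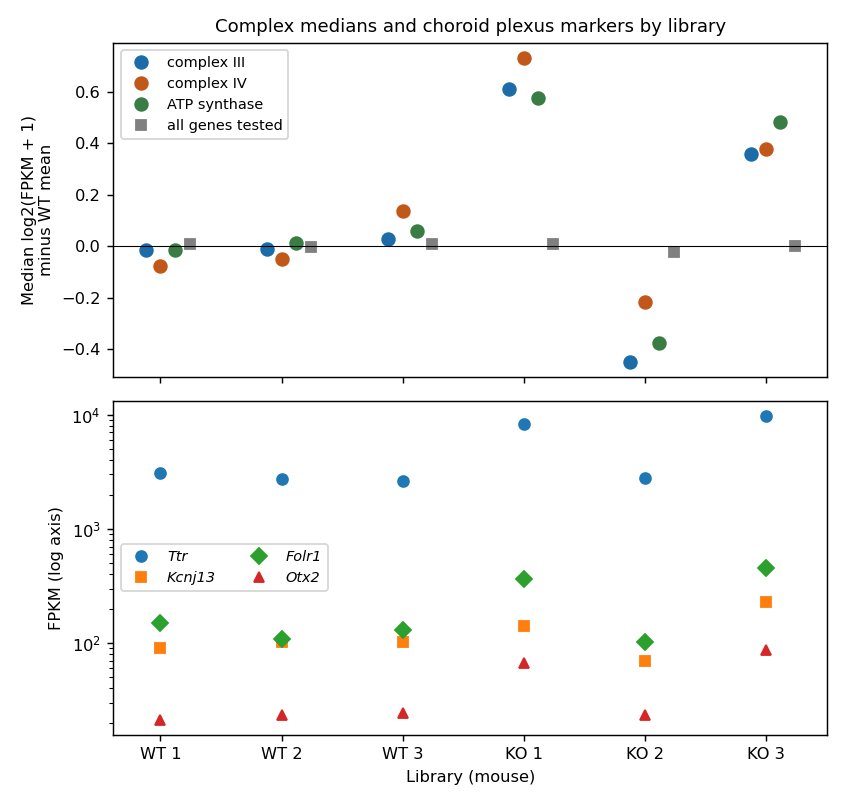
Upper panel, the median difference from the WT mean on the log2(FPKM + 1) scale of each complex and of all genes tested in each library, and lower panel, the FPKM of the 4 choroid plexus markers on a log axis. The complexes lie at 0.58 to 0.73 in KO 1, −0.45 to −0.22 in KO 2 and 0.36 to 0.48 in KO 3, and all 4 markers are highest in KO 1 and KO 3.

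Complex III has a pair of large core proteins, which face the matrix. *Uqcrc1* stood at 147, 144 and 156 FPKM in WT mice and at 156, 105 and 189 FPKM in KO mice. *Uqcrc2* stood at 79.1, 83.0 and 72.8 FPKM in WT mice and at 124, 59.0 and 108 FPKM in KO mice. In both genes KO 1 and KO 3 were above every WT value and KO 2 was below. The log2 fold changes were −0.03 ± 0.24 (SE) and 0.24 ± 0.27. Without KO 2 they were 0.20 and 0.56, with unadjusted limma p of 0.218 and 0.00657.

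The catalytic subunits encoded in the nucleus are cytochrome c1 and the Rieske iron-sulfur protein. *Cyc1*, for cytochrome c1, stood at 112, 118 and 115 FPKM in WT mice and at 108, 81.1 and 145 FPKM in KO mice. *Uqcrfs1*, for the Rieske protein, stood at 42.8, 60.0 and 68.5 FPKM in WT mice and at 60.7, 45.1 and 61.4 FPKM in KO mice. KO 1 was within the WT range for *Uqcrfs1* and below it for *Cyc1*, unlike most members. Both means were slightly lower in KO mice, with log2 fold changes of −0.08 ± 0.24 and −0.02 ± 0.23 (SE). Without KO 2 both log2 fold changes were 0.12.

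The small subunits surround this core. *Uqcrb* (mm10, chr13:66900617-66905378, minus strand) encodes the subunit that helps to hold ubiquinone at its binding site. It stood at 141, 163 and 187 FPKM in WT mice and at 286, 226 and 259 FPKM in KO mice. All KO libraries, KO 2 included, were above all WT libraries. The log2 fold change was 0.65 ± 0.22 (SE), with an unadjusted limma p of 0.0131 and an adjusted p of 0.841, and the exact two-sided permutation test gave p = 0.1. Corrected for transcript length and GC content, the log2 fold change was 0.27 and the limma p 0.166, so the call was lost. Without WT 1 the log2 fold change was 0.55 with an unadjusted limma p of 0.0722. The gene overlaps exons of *Gm10767* on the other strand, and whether fragments were assigned by strand is not given in the sources used here.

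The other small subunits followed the common order. *Uqcrh*, for the hinge protein at cytochrome c1, *Uqcrq*, *Uqcr10* and *Uqcr11* had WT means of 212 to 352 FPKM and log2 fold changes of 0.12 to 0.19. None had an unadjusted limma p under 0.05 with all libraries. Without KO 2 all of them had one, with log2 fold changes of 0.44 to 0.53. *Uqcrb* thus had the highest log2 fold change of complex III. Leaving out KO 1 turned the median of the 9 genes to −0.05.

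The 10 subunits of complex IV that most tissues share had WT means of 70.1 to 571 FPKM, and the mean was higher in KO mice for all 10. Their median differences from the WT mean were 0.73, −0.23 and 0.38 in KO 1, KO 2 and KO 3 on the log2 scale. None had an unadjusted p under 0.05 with all libraries. Without KO 2 all had one but *Cox6a1* and *Cox7a2*, with unadjusted limma p of 0.0594 and 0.0533. *Cox5a* and *Cox5b* encode matrix-side subunits, and *Cox6b1* encodes one that faces the intermembrane space. Their log2 fold changes were 0.25 ± 0.25, 0.36 ± 0.28 and 0.15 ± 0.28 (SE), and 0.49, 0.58 and 0.41 without KO 2. *Cox7b*, for a small membrane subunit, had 0.46 ± 0.25 and *Cox7c* 0.35 ± 0.29 (0.72 and 0.65 without KO 2). *Cox7a2l*, which takes part in joining complex III to complex IV, was among the few with a lower mean, 139 ± 30.3 FPKM in KO mice against 147 ± 6.90 FPKM in WT mice (SD, n = 3). *Cox6b2*, the form of *Cox6b1* known from testis, stood at 48.0, 34.2 and 55.4 FPKM in WT mice and at 61.6, 38.6 and 114.6 FPKM in KO mice, and the groups overlapped.

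The tissue isoforms were compared with their common partners next, each as a percentage of the summed FPKM of its pair within a library. Such a share does not depend on scaling between libraries. The shares of 3 of the 4 tissue isoforms overlapped between the groups, and the share of *Cox8b* did not. An exact permutation test at 3 mice against 3 could not reach significance for any of them.

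*Cox8b* (mm10, chr7:140898945-140900446, minus strand) encodes the form of subunit 8 found in heart, skeletal muscle and brown fat of rodents. It was listed at 0 FPKM in all 3 WT libraries and at 9.04 FPKM in KO 1, 1.66 FPKM in KO 2 and 3.47 FPKM in KO 3. Every KO library was above the WT libraries, and KO 1 was the highest. No fold and no p are given for a gene that is listed at 0 in a whole group and entered through the other group alone. At the estimated depths, 3 fragments on its annotated transcript correspond to 0.719 to 1.32 FPKM, so that KO 2 lay just over its own limit of 1.32 FPKM. An exact 0 can also be a failed estimate in such files. Of 80 symbols of cytosolic ribosomal proteins, 1 was at 0 in some library and at 1 FPKM or more in another.

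*Cox8a*, the common partner, stood at 316, 362 and 383 FPKM in WT mice and at 603, 334 and 567 FPKM in KO mice. KO 1 and KO 3 were above every WT value and KO 2 was between them, and the log2 fold change was 0.46 ± 0.28 (SE), with a limma p of 0.133. It was 0.73 without KO 2 (unadjusted limma p of 0.00135), 0.30 without KO 1 and 0.36 with quantile normalization (0.0382). *Cox8b* was therefore a small part of the pair wherever it was found. Its share was 0 in WT mice and 1.48% in KO 1, 0.497% in KO 2 and 0.608% in KO 3, a mean of 0.860% ± 0.536 (SD, n = 3) in KO mice.

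The sequences before the annotated start show how unlike these partners are in CpG content, and they are given for that reason. The 250 bases before the start are from the RefSeq annotation of GRCm38.p6, read 5′ to 3′ on the gene's strand, with every CpG in capitals. *Cox8b* is at chr7:140900447-140900696 (minus strand) and *Cox8a* at chr19:7217617-7217866 (minus strand).
Cox8b: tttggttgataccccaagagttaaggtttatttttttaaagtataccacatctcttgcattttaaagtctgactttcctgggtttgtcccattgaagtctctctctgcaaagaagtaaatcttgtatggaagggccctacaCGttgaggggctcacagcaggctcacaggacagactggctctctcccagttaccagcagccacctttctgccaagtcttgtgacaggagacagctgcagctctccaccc
Cox8a: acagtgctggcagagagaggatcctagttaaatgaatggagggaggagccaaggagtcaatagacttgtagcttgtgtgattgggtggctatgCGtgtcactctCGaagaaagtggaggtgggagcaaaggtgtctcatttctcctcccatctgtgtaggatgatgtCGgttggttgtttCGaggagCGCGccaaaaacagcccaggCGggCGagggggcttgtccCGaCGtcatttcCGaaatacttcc
The *Cox8b* window held 1 CpG and 47.2% G and C, and the *Cox8a* window 11 CpG and 52.8%. Over the 34 members matched in the RefSeq table the median was 14 CpG per window, and over all 27025 genes of the table it was 6. *Cox8b* had the lowest number among these members.

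*Cox8b* is a muscle and brown fat gene, and markers of both tissues were low in most cases. Of 14 striated muscle markers, 6 were under 1 FPKM in all libraries, and the 14 summed to 18.7 to 25.5 FPKM in WT mice and to 19.0 to 22.9 FPKM in KO mice. Of 7 brown fat markers, *Adipoq* was listed at 0 in all libraries and *Ucp1* reached at most 1.08 FPKM, in KO 3. *Cidea*, a lipid droplet gene, was at 1.77 to 7.54 FPKM in WT mice and at 3.69 to 7.53 FPKM in KO mice. *Pparg*, the transcription factor of fat cell formation, was at 0.411, 0 and 0.307 FPKM in WT mice and at 1.04, 1.27 and 2.28 FPKM in KO mice, all KO values above all WT values, and its mean was too low for it to be tested with limma. *Fabp4* encodes a fatty acid binding protein of fat cells and of some endothelial cells. It was listed at 0, 0 and 1.67 FPKM in WT mice and at 9.82, 4.17 and 0.723 FPKM in KO mice, so the groups overlapped. Its WT mean was 0.557 FPKM, so it entered the fit only through the KO libraries, and no p is given. The brown fat sum was 2.18 to 10.2 FPKM in WT mice and 9.18 to 18.4 FPKM in KO mice, so the groups overlapped. *Cox8b* did not follow the order of this sum over the libraries. The part of these cells in the *Cox8b* values was not tested.

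*Cox7a1* encodes the heart and muscle form of subunit 7a. It stood at 44.1, 11.9 and 19.4 FPKM in WT mice and at 57.7, 31.1 and 35.1 FPKM in KO mice. KO 2 and KO 3 were below WT 1, so the groups overlapped, and the log2 fold change was 0.84 ± 0.41 (SE), with a limma p of 0.0698. The log2 fold change was 1.33 without WT 1 (unadjusted limma p of 0.00266), 0.43 without WT 2 (0.301) and 0.58 without KO 1 (0.242). *Cox7a2*, the common form, stood at 85.0, 112 and 114 FPKM in WT mice and at 174, 89.6 and 119 FPKM in KO mice. Its log2 fold change was 0.26 ± 0.27 (SE), 0.48 without KO 2 and 0.0083 without KO 1.

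The share of *Cox7a1* in its pair was far larger than that of the other muscle forms and varied among WT mice. It was 34.2%, 9.59% and 14.5% in WT mice and 24.9%, 25.8% and 22.7% in KO mice, so that all KO values lay inside the WT range (exact permutation p = 0.6, adjusted over 7 shares 0.7). The difference of the means, 5.04 percentage points, was 12.4 without WT 1, 0.120 without WT 2 and 2.59 without WT 3. The 6 markers of smooth muscle summed to 579, 246 and 263 FPKM in WT mice and to 776, 270 and 399 FPKM in KO mice. *Cox7a1* followed the same order over the 6 libraries as this sum, as it did with 1 of 11 cell type lists, which was seen after the values were known. The part of smooth muscle in the *Cox7a1* values was not tested.

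*Cox4i2* encodes the form of subunit 4 known from lung and from vessel-wall cells. It stood at 4.81, 9.52 and 19.2 FPKM in WT mice and at 19.0, 11.6 and 10.5 FPKM in KO mice. The groups overlapped, with a log2 fold change of 0.41 ± 0.41 (SE) and a limma p of 0.34. Leaving out WT 1 turned it to −0.03, and leaving out WT 3 gave 0.87 with an unadjusted p of 0.0385. *Cox4i1*, the common form, stood at 542, 557 and 615 FPKM in WT mice and at 883, 302 and 786 FPKM in KO mice. KO 2 was below and the other KO libraries were above all WT values, and the log2 fold change was 0.06 ± 0.39 (SE). It was 0.55 without KO 2 (unadjusted limma p of 0.00657), −0.23 without KO 1 and −0.14 without KO 3. The *Cox4i2* share averaged 2.37% ± 1.21 in KO mice against 1.86% ± 1.09 in WT mice (SD, n = 3, exact permutation p = 0.6, adjusted 0.7). The difference of 0.512 percentage points was −0.146 without KO 2, 0.0203 without WT 1 and 1.09 without WT 3.

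*Cox6a2* encodes the heart and muscle form of subunit 6a and was near the limit of detection. It was listed at 2.68, 0 and 3.92 FPKM in WT mice and at 0, 0.617 and 1.21 FPKM in KO mice. The groups overlapped at the library listed at 0. The WT mean was 2.20 FPKM and the KO mean 0.610 FPKM, so the gene entered the fit only through the WT libraries, and no limma p is given. *Cox6a2* was the only tissue isoform with a lower mean in KO mice, a direction that its entry favours. Its log2 fold change of −0.78 was −1.48 without WT 2, −0.33 without WT 3 and −0.47 without KO 1. *Cox6a1*, the common form, stood at 371, 356 and 456 FPKM in WT mice and at 554, 302 and 468 FPKM in KO mice, with a log2 fold change of 0.12 ± 0.28 (SE), which was 0.38 without KO 2 and −0.062 without KO 1. The *Cox6a2* share averaged 0.154% ± 0.136 in KO mice against 0.523% ± 0.458 in WT mice (SD, n = 3, exact permutation p = 0.4, adjusted 0.7). The difference of −0.369 percentage points was −0.204 without WT 3 and −0.631 without WT 2. *Cox6a2* overlaps exons of *Itgad* on the other strand.

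**Figure D4:**
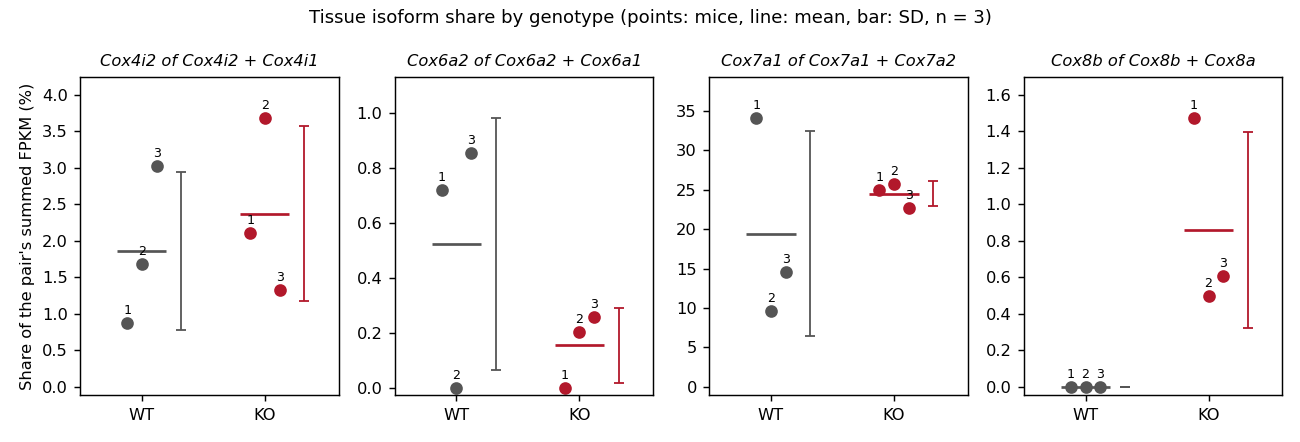
Share of each of the 4 tissue isoforms in the summed FPKM of its pair with the common form, in percent, with a point for each mouse (numbered), a line at the group mean and a bar for the SD (n = 3), each panel on its own axis. *Cox8b* is 0 in WT mice and 0.497% to 1.48% in KO mice, and the *Cox7a1* share runs from 9.59% to 34.2% in WT mice.

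The F1 head of ATP synthase makes the ATP, with catalytic beta subunits (*Atp5b*), alpha subunits (*Atp5a1*) and a central stalk (*Atp5c1*, *Atp5d* and *Atp5e*). The WT means of these 5 genes were 152 to 477 FPKM and their log2 fold changes ran from −0.03 for *Atp5a1* to 0.24 for *Atp5c1*. Median differences from the WT mean were 0.32, −0.39 and 0.45 in KO 1, KO 2 and KO 3. *Atp5b* averaged 558 ± 176 FPKM in KO mice against 477 ± 47.1 FPKM in WT mice (SD, n = 3), so that the spread among KO mice exceeded the difference of the means.

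The peripheral stalk keeps the head from turning. Its 4 genes *Atp5f1*, *Atp5h*, *Atp5j* and *Atp5o* had log2 fold changes of 0.33 to 0.39, and the median differences were 0.70, −0.26 and 0.61. *Atp5j* overlaps exons of *Gabpa* on the other strand, and *Atp5o* those of *Donson* on the same strand. The small membrane subunits *Atp5j2*, *Atp5k* and *Atp5l*, which help the enzyme to form dimers, had the widest range between KO libraries within ATP synthase, with median differences of 0.89, −0.50 and 0.38. None of these 7 genes had an unadjusted limma p under 0.05 with all libraries, and all 7 had one without KO 2. *Atp5s* and *Atp5sl*, the genes that are no subunits, had WT means of 5.33 and 9.99 FPKM and log2 fold changes of 0.05 and 0.06.

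The c-ring turns as protons pass, and 3 genes encode the same mature c subunit behind different targeting peptides. *Atp5g1* stood at 155, 176 and 186 FPKM in WT mice and at 326, 152 and 347 FPKM in KO mice. *Atp5g3*, the most abundant, stood at 378, 405 and 421 FPKM in WT mice and at 639, 300 and 679 FPKM in KO mice. For both genes KO 2 was the lowest library and the other KO libraries were above all WT values. Their log2 fold changes were 0.58 ± 0.31 and 0.34 ± 0.33 (SE), with limma p of 0.0924 and 0.325. Without KO 2 they were 0.96 and 0.72, with unadjusted limma p of 0.000194 and 0.00101, and without KO 3 they were 0.37 and 0.13. Without KO 1 *Atp5g3* had 0.17, and quantile normalization gave *Atp5g1* an unadjusted limma p of 0.0262.

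*Atp5g2* (mm10, chr15:102662864-102672352, minus strand) stood at 178, 222 and 203 FPKM in WT mice and at 309, 234 and 248 FPKM in KO mice. KO 2 was here above every WT library, so the groups did not overlap. The log2 fold change was 0.39 ± 0.22 (SE), with an unadjusted limma p of 0.108 and an exact permutation p of 0.1. With transcript length and GC content corrected for, the log2 fold change was 0.50 with an unadjusted p of 0.0137. Without KO 2 it was 0.47, with an unadjusted limma p of 0.0247.

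The share of *Atp5g2* in the c-subunit genes was 25.0%, 27.7% and 25.1% in WT mice and 24.3%, 34.1% and 19.5% in KO mice. KO 2 had the highest share and KO 3 the lowest, and the means of 25.9% ± 1.52 and 26.0% ± 7.47 (SD, n = 3 each) differed by less than the spread (exact permutation p = 1). The share of *Atp5g1* averaged 25.0% ± 2.59 in KO mice against 22.2% ± 0.631 in WT mice (exact permutation p = 0.2, adjusted 0.7, n = 3 each). Its difference of 2.74 percentage points was 4.16 without KO 2 and 1.62 without KO 3. That of *Atp5g3* averaged 49.1% ± 4.88 against 51.9% ± 1.40 (exact permutation p = 0.5, adjusted 0.7, n = 3 each). Its difference of −2.81 percentage points was −0.137 without KO 2, −4.92 without KO 3 and −5.33 with the length and GC correction.

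The windows before the starts of *Atp5g1*, with KO 2 lowest, and *Atp5g2*, with KO 2 above the WT mice, are set side by side because these genes encode 1 mature protein. They are from the same source, read in the same way, with every CpG in capitals, at chr11:96075632-96075881 and chr15:102671048-102671297 (minus strand for both). The RefSeq starts of both genes lie inside the gene spans of the GENCODE annotation, from which the span of *Atp5g2* was given, so that these windows overlap the spans.
Atp5g1: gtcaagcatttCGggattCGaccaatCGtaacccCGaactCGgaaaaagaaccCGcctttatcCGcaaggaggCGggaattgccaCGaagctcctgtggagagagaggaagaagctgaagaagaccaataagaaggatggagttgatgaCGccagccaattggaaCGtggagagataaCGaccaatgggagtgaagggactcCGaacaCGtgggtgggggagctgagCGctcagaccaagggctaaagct
Atp5g2: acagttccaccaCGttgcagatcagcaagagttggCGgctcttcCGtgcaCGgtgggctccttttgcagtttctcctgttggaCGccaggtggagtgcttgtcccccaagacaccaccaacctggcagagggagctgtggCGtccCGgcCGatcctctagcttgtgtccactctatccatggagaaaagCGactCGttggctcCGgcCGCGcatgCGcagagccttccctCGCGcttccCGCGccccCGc
The *Atp5g1* window held 15 CpG and 53.6% G and C, and the *Atp5g2* window 19 CpG and 62.8%. Only the second held the consensus motif of NRF1, which reads the same on both strands. NRF1 is a transcription factor known for many respiratory chain genes.

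Motifs were counted on both strands in the 250-base windows of the 34 matched members and of all 27025 genes. The NRF1 motif was in 3 members, *Atp5g2*, *Atp5k* and *Cox6a1*, or 8.82%, against 0.877% of all genes. The ETS motif CCGGAAG, read by GABP among others, was in 8 members, or 23.5%, against 7.83%. The YY1 motif AAGATGGC was in 2 members (5.88% against 1.83%), and the ERR motif AAGGTCA in 2 (5.88% against 4.7%). The members differ from the average gene in CpG content, as given for *Cox8b*, and a match of letters is a description only.

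The genes that assemble these complexes, and the carriers that serve them, showed no common call. Over all genes tested, 2.77% were called higher, 3.11% lower and 49.2% were above 0. Of 6 complex III assembly factors, 0 had an unadjusted p under 0.05, and all 6 had a log2 fold change above 0. Of 25 complex IV assembly factors, 2 were called higher and 1 lower at that level, and 19 of 25 were above 0. *Surf1*, a factor for the early steps of complex IV assembly, stood at 28.4, 29.2 and 23.9 FPKM in WT mice and at 18.6, 12.1 and 22.3 FPKM in KO mice. All KO values were below all WT values, with a log2 fold change of −0.63 ± 0.24 (SE) and a limma p of 0.0274 unadjusted and 0.841 adjusted. *Coa3*, which binds newly made COX1, had a log2 fold change of 0.56 ± 0.24 (SE) and an unadjusted limma p of 0.0405, with overlapping groups. *Pet117* was at 15.9, 1.76 and 0 FPKM in WT mice and at 24.2, 18.3 and 9.49 FPKM in KO mice, so the groups overlapped, and its unadjusted limma p was 0.0201.

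Of 7 tested genes for ATP synthase assembly, its inhibitor and further small subunits, 0 were called and 7 were above 0. *Usmg5*, a small subunit known for its part in the dimer, had a log2 fold change of 0.53 ± 0.33 (SE). *Ndufa4*, a subunit of complex IV that its symbol does not show, had 0.28 ± 0.36. Of 7 tested genes for cytochrome c, the phosphate and ADP/ATP carriers and the outer membrane channels, 0 were called and 6 were above 0. All 7 had KO 1 and KO 3 above every WT library and KO 2, an order found in 13.2% of all genes tested. It was found in 2 of 6 complex III assembly factors, 9 of 25 complex IV assembly factors and 2 of 7 of the ATP synthase list.

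Members have short transcripts, and transcript length moved with the differences between libraries. The median longest transcript was 929.5 nt for members and 3386 nt over the genes tested. Over all 14165 genes with a length, Spearman's rho between length and the difference from the WT mean was −0.24 in KO 1, 0.23 in KO 2 and −0.14 in KO 3. Over the 42 members it was −0.37, −0.26 and −0.03, and without *Cox8b* and *Cox6a2*, which have libraries listed at 0, it was −0.38, −0.24 and 0.01. These are correlations across genes that share libraries, and genes are not independent replicates. After each library was corrected for length and GC content, the medians without *Cox8b* were 0.10 for complex III, 0.17 for complex IV and 0.21 for ATP synthase, against 0.17, 0.26 and 0.25 before it.

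**Figure D5:**
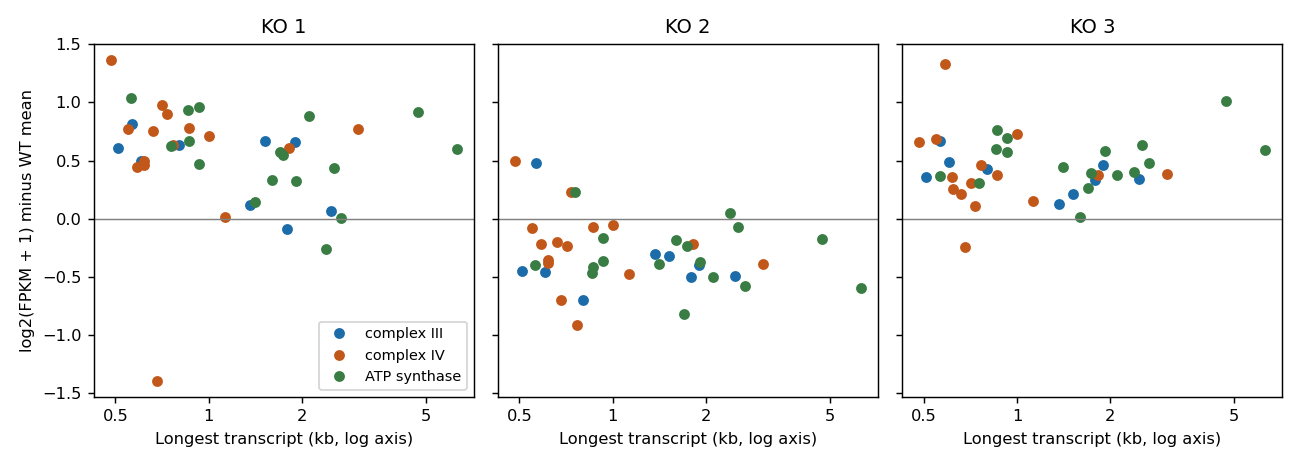
Difference of each KO library from the WT mean on the log2(FPKM + 1) scale against the longest annotated transcript in kb on a log axis, with a point for each tested member other than *Cox8b*, coloured by complex, and a panel for each KO library. Most points lie above 0 in KO 1 and KO 3 and below 0 in KO 2 at short and long transcripts.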

How the data were processed

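RNA of brain microvessels was measured in 3 WT and 3 KO mice, with 1 library each, prepared with a directional kit. The authors trimmed the reads, mapped them with TopHat (mm10 in the submitters' processing notes) and deposited FPKM values, 1 table per mouse with 23183 symbols. Versions, and whether counting used strand, are not given in the sources used here. Read counts were not used here, so DESeq2, which the authors name, was not run.

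Libraries were grouped by genotype. The deposited FPKM values were tested in R 4.3.3 by limma 3.58.1 on log2(FPKM + 1), with a trended variance and neither covariates nor added scaling, for 14247 genes whose mean reached 1 FPKM. Shares within a library were compared with exact two-sided permutation tests, adjusted over the 7 shares. Tables and plots were made in Python 3.11.15 with pandas 2.3.3, numpy 2.4.6 and matplotlib 3.10.9. Lengths, gene coordinates and overlapping exons came from GENCODE M21 (GRCm38, the same assembly as mm10), and length and GC trends were removed with loess (span 0.3). Members beyond those marked above also overlap exons of other genes, among them *Cox4i1* (*Emc8*, other strand) and *Atp5g2* (*Mir688*, same strand). Of the annotated pseudogenes, 7 are named after members (of *Atp5c1*, *Atp5k*, *Atp5l* and *Uqcrh*), and reads shared with such copies make these 4 genes less certain. Depth was estimated from the steps between the smallest FPKM values and the annotated lengths, and the limit of 3 fragments covers counting error only.

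The members were given by their symbols, and the gene and marker lists were chosen with earlier results of these data known. Every member could be named, the tissue isoforms, their partners, the c-subunit genes and members without overlap in full, and other genes only from the lists. The replicate numbers in the titles did not pair the libraries. Alternatives were other filters, a pseudocount of 0.1, median, trimmed-mean and quantile scaling, limma without the trend, a replicate block, the length and GC correction, each library left out in turn and, chosen after seeing the data, KO 1 and KO 3 left out together.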

Additional observations from a re-analysis of the deposited data

How the results depend on the processing

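No member passed adjustment with limma in any of the 16 alternatives. Over the 41 members other than *Cox8b*, 1 had an unadjusted p under 0.05. The number was 4 after quantile normalization, ranged from 1 to 28 when single libraries were left out (28 without KO 2), and was 11 without KO 1 and KO 3, an alternative chosen after seeing the data in which the lone KO library is taken to vary like the WT mice. Counted with *Cox8b*, whose call its entry fixed, the numbers were 2, then 5, 2 to 29 and 12, and 1 with a filter at a mean of 5 FPKM, which removed it. With *Cox8b* in complex IV, the median log2 fold change ranged from −0.05 to 0.48 for complex III, from 0.06 to 0.56 for complex IV and from 0.08 to 0.54 for ATP synthase when single libraries were left out. Without KO 1 and KO 3 the medians were −0.45, −0.22 and −0.37. There, the log2 fold changes of *Atp5g1* (−0.18), *Atp5g3* (−0.42), *Cox4i1* (−0.92), *Cox6a1* (−0.38), *Cox7a2* (−0.20) and *Cox8a* (−0.079) turned negative. Quantile normalization gave a complex III median of 0.05. With single libraries left out, *Cox4i1* ranged from −0.23 (without KO 1; −0.14 without KO 3) to 0.55, *Cox6a1* from −0.062 (without KO 1) to 0.38, and *Cox4i2* from −0.031 (without WT 1) to 0.87. The log2 fold change of *Uqcrb*, 0.65, lost its call at 0.55 without WT 1 (unadjusted limma p of 0.0722), at 0.48 without KO 1 and KO 3 (0.0653) and at 0.27 with the length and GC correction (0.166). The difference of the *Atp5g2* share (KO minus WT, percentage points) was 0.0642. It was −0.296 after quantile normalization, −0.389 without WT 1 and −0.360 without WT 3, and ranged from −4.03 (without KO 2) to 3.30 over the libraries left out. That of the *Cox7a1* share ranged from 0.120 (without WT 2) to 12.4 (without WT 1) around 5.04, and that of the *Cox4i2* share was 0.512, with a range of −0.146 (without KO 2) to 1.09. For the shares of *Atp5g1*, *Atp5g3* and *Cox6a2* the ranges were 1.62 to 4.16, −4.92 to −0.137 and −0.631 to −0.204. The causes were not tested. The log2 fold change of *Cox7a1* ranged from 0.43 to 1.33 and that of *Cox6a2* from −1.48 to −0.33 with single libraries left out. Depth limits *Cox6a2* and *Cox8b*, since the lowest values above 0 of both are near those of 3 fragments.

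Replicate numbers in the titles did not pair the libraries, with correlations of 0.0375, 0.0267 and 0.00159 between the deviations of same-numbered libraries. With a replicate block, 2 of 41 members had an unadjusted limma p under 0.05 (3 with *Cox8b*), and 871 genes in all against 838. *Cox7a1* was the one added, with a limma p of 0.0055, and 0 members passed adjustment.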
